A study of Mus musculus with 2 samples.

Results

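The 9 genes described here encode protease zymogens of the exocrine pancreas: the chymotrypsins Ctrb1, Ctrl and Ctrc, the elastases Cela1, Cela2a, Cela3a and Cela3b, and the carboxypeptidases Cpa1 and Cpb1. They were chosen by name, as 9 of the 44713 genes in a table of RNA sequencing counts; 8 were listed under these symbols, and Cela3a was found as Gm13011, which RefSeq gives as its synonym. The counts came from mouse pancreatic islets. The db/db group carried a genotype labelled Lepr-/-, a loss of the leptin receptor, and such mice serve as a model of obese diabetes. The db/m group was labelled wild type. Both were on a C57BL/6 background, and age, sex and the number of animals per library are not stated in the labels. There was 1 library per group, with 18233695 counts for db/db and 16271129 for db/m, so no difference below has a replicate check, no test was possible and no p-value is given.

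Acinar cells make these enzymes as inactive precursors, store them in zymogen granules and release them into the gut, where enteropeptidase activates trypsinogen and trypsin in turn activates the others. Chymotrypsins and elastases are serine proteases that cut inside proteins, chymotrypsins mainly after large hydrophobic residues and elastases mainly after small ones. Carboxypeptidases are zinc enzymes that remove residues from the C-terminal end. In acinar cells, many of these genes are known targets of the PTF1 complex, which contains Ptf1a and Rbpjl and binds a paired sequence of an E-box and a TC-box.

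The genes lie on 5 chromosomes (RefSeq annotation of GRCm38.p6, the files' build). Ctrb1 (chr8:111686510-111691010) and Ctrl (chr8:105931994-105933862) share chromosome 8. Ctrc (chr4:141838239-141846287) lies 12234 bases from Cela2a (chr4:141814954-141826005), and Cela3a (chr4:137401554-137409791) lies 11217 bases from Cela3b (chr4:137421008-137430520). Cela1 is at chr15:100674422-100687920, Cpa1 at chr6:30639218-30645361 and Cpb1 at chr3:20249479-20275733. RefSeq classes Ctrc, which encodes chymotrypsin C, as a transcribed pseudogene in this C57BL/6J genome, whereas the deposited table classes it as protein-coding.

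Promoter sequence (RefSeq, GRCm38.p6) was found for 8 of the 9 genes, all but Ctrc. The 250 bases before the annotated start are printed for Ctrb1 and Cela1, which hold an E-box followed by a TC-box, for Cela2a, which had the ratio farthest from 1, and for the neighbours Cela3a and Cela3b, whose counts lay far apart. All are on the minus strand and are written 5′ to 3′: Ctrb1 is chr8:111691011-111691260, Cela1 chr15:100687921-100688170, Cela2a chr4:141826006-141826255, Cela3a chr4:137409792-137410041 and Cela3b chr4:137430521-137430770. Capitals mark matches on either strand to the E-box letters CACCTG or CAGCTG, the TC-box letters TTTCCC, the GATA motif GATAAG and the TATA box letters TATAAA; no matches overlap.
Ctrb1: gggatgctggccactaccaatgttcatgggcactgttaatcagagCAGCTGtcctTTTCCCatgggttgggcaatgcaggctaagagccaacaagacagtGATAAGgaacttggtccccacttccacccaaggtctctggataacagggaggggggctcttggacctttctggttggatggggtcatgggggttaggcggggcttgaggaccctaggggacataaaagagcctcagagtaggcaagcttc
Cela1: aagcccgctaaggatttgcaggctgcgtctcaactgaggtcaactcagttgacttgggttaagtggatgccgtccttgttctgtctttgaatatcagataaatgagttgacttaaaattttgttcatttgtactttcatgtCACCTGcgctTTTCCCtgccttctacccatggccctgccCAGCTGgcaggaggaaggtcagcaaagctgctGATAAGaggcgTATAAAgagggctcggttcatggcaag
Cela2a: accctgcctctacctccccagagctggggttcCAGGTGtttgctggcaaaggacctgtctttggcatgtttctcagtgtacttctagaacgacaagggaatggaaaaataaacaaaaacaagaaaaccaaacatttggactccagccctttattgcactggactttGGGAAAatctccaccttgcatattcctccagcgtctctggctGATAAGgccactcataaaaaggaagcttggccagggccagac
Cela3a: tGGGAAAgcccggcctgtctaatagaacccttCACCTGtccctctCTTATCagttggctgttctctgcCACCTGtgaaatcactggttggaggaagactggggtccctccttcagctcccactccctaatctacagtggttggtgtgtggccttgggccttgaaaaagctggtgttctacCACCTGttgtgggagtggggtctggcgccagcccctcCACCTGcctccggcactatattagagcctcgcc
Cela3b: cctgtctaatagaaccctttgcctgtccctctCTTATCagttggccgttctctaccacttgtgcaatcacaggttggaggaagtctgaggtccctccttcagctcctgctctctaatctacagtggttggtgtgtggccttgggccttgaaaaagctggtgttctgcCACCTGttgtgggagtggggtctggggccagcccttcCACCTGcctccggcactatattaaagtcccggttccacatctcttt

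The E-box CACCTG was present in 6 of the 8 promoters (all but those of Ctrb1 and Cpa1), against 17.2% of 32851 promoter windows of the same length, and CAGCTG in 3 of 8 (Ctrb1, Ctrl and Cela1), against 13.001%. TTTCCC was present in 5 of 8 (Ctrb1, Cela1, Cela2a, Cela3a and Cpa1), against 21.9%. An E-box followed on the same strand by TTTCCC within 25 bases was present in 2 of 8, Ctrb1 and Cela1, with 4 bases between the motifs in each, against 0.581% of all windows. GATAAG was present in 5 of 8 (Ctrb1, Cela1, Cela2a, Cela3a and Cela3b), against 6.55%, and TATAAA in 1 of 8 (Cela1), against 12.4%. The promoters of Cela3a and Cela3b were 92.4% identical over 237 aligned bases, so their matches are not independent. The motifs were chosen with the sequences in view, and a match describes letters only.

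The comparison asks whether the zymogen messages differ between islet preparations of diabetic and control mice. None of the 9 genes differed by 2-fold, and the summed counts of the set took nearly the same share of each library. In db/db islets they made up 41.4% of all counts (7544335, with an exact binomial 95% interval of 41.35% to 41.4%), and in db/m islets 40.9% (6647266, interval 40.83% to 40.88%). Counts were scaled with TMM, which centres the ratios of most genes, and divided by the scaled library size to give CPM. On that scale the set summed to 389386 CPM in db/db islets and 434101 CPM in db/m islets, a ratio of 0.897 (95% counting interval 0.896 to 0.898). Scaled by total counts the ratio was 1.01, on the other side of 1, so the set as a whole has no direction that holds under every scaling. The intervals here and below cover counting error only, and in a bulk sample fewer cells of a type and less RNA per cell cannot be told apart.

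A gene was called where its ratio was at least 2-fold, its interval excluded 1 and its mean was at least 1 CPM. All 9 genes passed the filter on low counts and 0 were called, against 7.87% of the 10300 genes tested (395, or 3.83%, higher and 416, or 4.04%, lower in db/db islets); with total counts 564 were higher and 277 lower. At a limit of 1.5-fold 0 of the 9 were called, against 17.5% of all genes. At 1.5-fold 8.63% of all genes were higher and 8.87% lower. At a log2 limit of 0.32, the lowest tried, 1 of the 9 was called, Cela2a, lower in db/db islets, against 14.6% of all genes called lower, 15.8% higher and 30.4% in either direction. With total counts Cela2a stood at -0.25 on the log2 scale, short of that limit. Counting intervals narrow with depth, and 8 of the 9 had at least 163249 counts in each library; of the 36 genes whose mean reached 1000 CPM, to which these 8 belong, 13.9% were called at 2-fold. The 9 log2 ratios ran from -0.43 to 0.07 with a median of -0.12, whereas the median over all genes tested was 0.02. Among the 36 genes whose mean reached 1000 CPM the median was -0.21, so the 9 were not lower than genes of like level. Scaling by total counts added 0.18 to every log2 ratio, which put the median of the 9 at 0.06, above 0, and that of all genes at 0.20, so the distance between both medians stayed at -0.14.

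**Figure D1:**
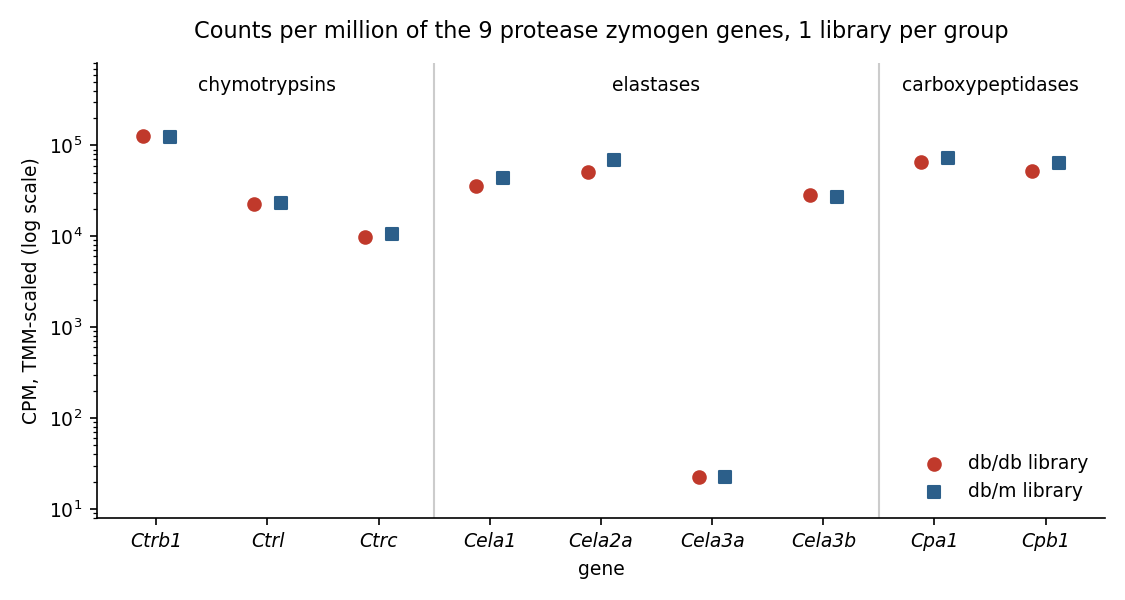
CPM after TMM scaling (log axis) of each gene in db/db islets (circles) and db/m islets (squares), 1 library per group. Within each gene the points lie close together, and Cela3a stands at 22.5 CPM in db/db and 22.7 CPM in db/m islets, far below the other 8 genes.

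The chymotrypsins had ratios from 0.922 to 1.02. Ctrb1, the B-type chymotrypsinogen and the gene with the most counts in both libraries, had 2425247 counts (125175 CPM) in db/db islets and 1885823 counts (123154 CPM) in db/m islets, a ratio of 1.016 (1.014 to 1.018). Ctrl, a chymotrypsin-like protease, had 433805 counts (22390.0 CPM) in db/db islets and 359019 counts (23446 CPM) in db/m islets, a ratio of 0.955 (0.951 to 0.959). Both differences were smaller than the shift made by scaling with total counts.

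Ctrc encodes chymotrypsin C, which in humans regulates the activation and degradation of trypsinogen. It had 190405 counts (9827 CPM) in db/db islets and 163249 counts (10661 CPM) in db/m islets, a ratio of 0.922 (0.916 to 0.928). A count does not show whether protein is made from this transcript. Ctrcos, an annotated non-coding RNA that overlaps Ctrc, had 21 counts in db/db islets and 11 in db/m islets. The sources used here do not say whether counting used strand, so reads from Ctrc and Ctrcos cannot be told apart. The 3 chymotrypsins together stood at 157392 CPM in db/db islets and 157261 CPM in db/m islets, a ratio of 1.0008 (0.9991 to 1.0025), and at 1.13 with total counts.

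The elastases did not share one ratio. Cela2a, a pancreatic elastase, had 982859 counts (50728 CPM) in db/db islets and 1045498 counts (68276 CPM) in db/m islets, a ratio of 0.743 (0.741 to 0.745). Cela1, another elastase, had 688385 counts (35529.7 CPM) in db/db islets and 672617 counts (43925 CPM) in db/m islets, a ratio of 0.809 (0.806 to 0.812). For these genes the db/db value was the lower one under every scaling tried. Cela3b, an elastase that acts on alanine-containing substrates, had 552983 counts (28541 CPM) in db/db islets and 416434 counts (27195 CPM) in db/m islets, a ratio of 1.049 (1.045 to 1.054), and its db/db value was the higher one under every scaling tried.

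Cela3a, the elastase gene next to Cela3b, had 436 counts (22.5 CPM) in db/db islets and 348 counts (22.7 CPM) in db/m islets. Its ratio was 0.990 (0.858 to 1.14), and at this depth a difference was not detectable. Of the counts of the pair, Cela3a took 0.0788% in db/db islets (95% exact binomial interval 0.0716% to 0.0865%) and 0.0835% in db/m islets (0.075% to 0.0927%). Cela3b had 1268 counts for each count of Cela3a in db/db islets and 1197 in db/m islets, and the windows before their starts, printed above, are 92.4% identical. The transcripts of both genes were not compared. The sources used here do not say how multiply matching reads were counted, so the counts of both genes, and of Cela3a above all, are uncertain. The 4 elastases together stood at 114822 CPM in db/db islets and 139420 CPM in db/m islets, a ratio of 0.824 (0.822 to 0.825), and at 0.930 with total counts.

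The carboxypeptidases had ratios below 1 with TMM. Cpa1, which removes aromatic and aliphatic residues from the C-terminal end, had 1258708 counts (64966 CPM) in db/db islets and 1123414 counts (73365 CPM) in db/m islets, a ratio of 0.886 (0.883 to 0.888). Cpb1, which removes lysine and arginine, had 1011507 counts (52207 CPM) in db/db islets and 980864 counts (64055.5 CPM) in db/m islets, a ratio of 0.815 (0.813 to 0.817). With total counts Cpa1 took 6.90% of the counts in each library, while Cpb1 took 5.55% in db/db islets and 6.03% in db/m islets. The sum of both genes was 117173 CPM in db/db islets and 137420.0 CPM in db/m islets, a ratio of 0.853 (0.851 to 0.854), and 0.963 with total counts.

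**Figure D2:**
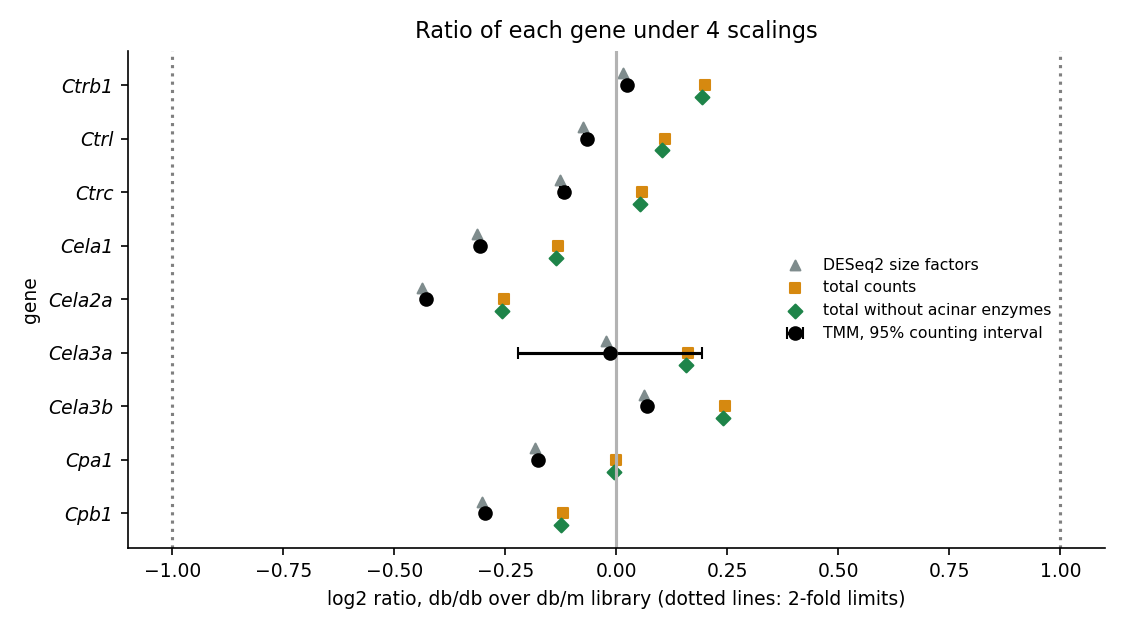
Log2 ratio of db/db over db/m islets for each gene, with TMM scaling (black, bars are 95% counting intervals) and 3 other scalings, dotted lines at 2-fold. All points lie between the dotted lines, Cela2a, Cela1 and Cpb1 stay left of 0 and Ctrb1 and Cela3b right of 0 under the scalings plotted, and Ctrl, Ctrc and Cela3a change sides.

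Because a share within the set does not depend on how the libraries are scaled, the make-up of the zymogen counts was compared as well. Chymotrypsins made up 40.4% of the set's counts in db/db islets and 36.2% in db/m islets, elastases 29.5% in db/db and 32.1% in db/m, and carboxypeptidases 30.1% in db/db and 31.7% in db/m. Each of these differences exceeded the counting intervals, which spanned less than 0.1 percentage points, but no replicate shows how far such shares vary between mice. Ctrb1 made up 32.1% of the set's counts in db/db islets (95% exact binomial interval 32.11% to 32.18%) and 28.4% in db/m islets (28.34% to 28.4%), 3.78 percentage points more in db/db. Cela2a made up 13.03% in db/db islets (13.004% to 13.05%) and 15.7% in db/m islets (15.7% to 15.76%), a difference of -2.70 points. Cpb1 differed by -1.35 points, Cela3b by 1.07 and Cela1 by -0.99, and the other 4 genes by less than 0.4 points. Shares of counts are not corrected for transcript length, for which no lengths were used here, so they do not rank the genes by their number of molecules.

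**Figure D3:**
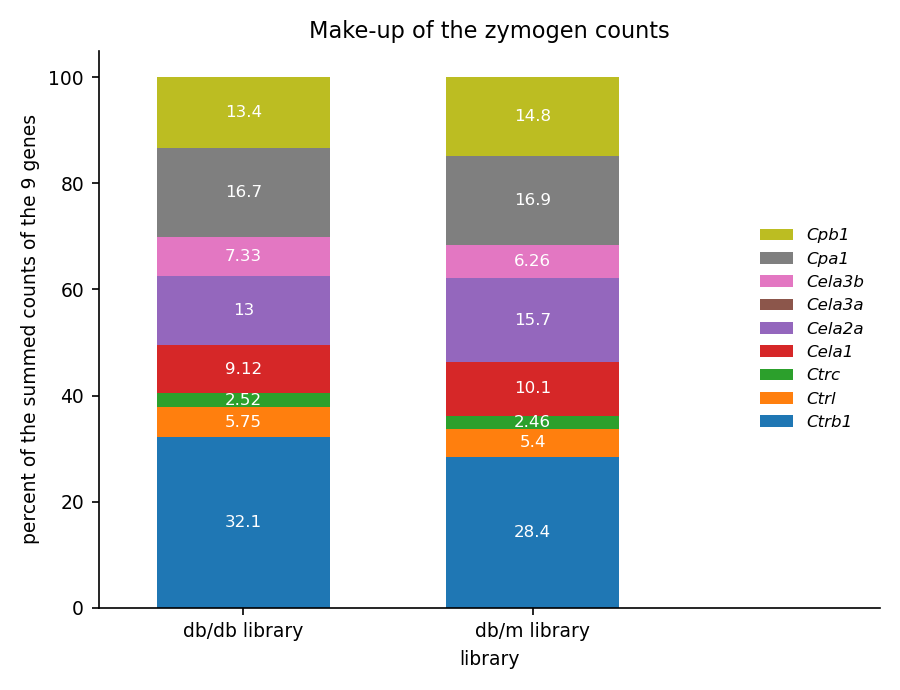
Percent of the summed counts of the 9 genes taken by each gene in db/db islets (left) and db/m islets (right). Ctrb1 takes 32.1% in db/db and 28.4% in db/m, Cela2a 13.03% in db/db and 15.7% in db/m, and Cela3a is too small to be seen.

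The same was read from pairs of genes. For each of the 36 pairs, the ratio of the genes within db/db islets was divided by that within db/m islets, in the order that gives a value above 1. The median was 1.13, 0 pairs reached 1.5, and the largest value was 1.41. That pair was Cela3b over Cela2a, with 0.563 counts of Cela3b per count of Cela2a in db/db islets and 0.398 in db/m islets (quotient 1.41, 95% counting interval 1.41 to 1.42). For Ctrb1 over Cela2a there were 2.47 counts per count in db/db islets and 1.80 in db/m islets, a quotient of 1.37 (1.36 to 1.37).

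Other genes of the secretory pathway, on lists of pancreatic genes, were set beside the 9. The 6 trypsinogens, whose active forms activate the others, had log2 ratios from -0.61 to 3.60; 3 were higher in db/db islets (Prss3, Prss1 and Try10), 0 were lower and the other 3 passed neither limit. The list had a median log2 ratio of 1.12, although their summed counts had a ratio of 0.962 (0.96 to 0.964), below 1 with TMM. With total counts the sum lay on the other side of 1, at 8.57% of the counts in db/db islets and 7.89% in db/m islets. Prss3 had 29753 counts in db/db islets and 1939 in db/m islets. Prss1 had 26419 counts in db/db and 1999 in db/m, and Try10 had 19681 in db/db and 5212 in db/m. The other 3 trypsinogens had ratios of 0.654 for Try4 (0.651 to 0.656), 0.784 for Prss2 (0.78 to 0.787) and 1.59 for Try5 (1.58 to 1.6). Trypsinogens resemble each other in sequence, which makes the count of any one of them uncertain.

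Of 11 tested genes for other digestive enzymes, 0 were higher in db/db islets, 3 were lower (Pla2g1b, Amy2a5 and Amy2b) and 8 were neither, with a median log2 ratio of -0.19. Amy2b, a pancreatic amylase, had 119584 counts in db/db islets and 239874 in db/m islets, a ratio of 0.394 (0.391 to 0.397), the phospholipase gene Pla2g1b had a ratio of 0.35 (0.339 to 0.362), and Amy2a5 one of 0.449 (0.422 to 0.478). With total counts Amy2a5 stood at -0.98 on the log2 scale and was no longer called. The lipase gene Pnlip had a ratio of 0.735 (0.733 to 0.737), the carboxyl ester lipase gene Cel 0.783 (0.78 to 0.786), the lipase-related gene Pnliprp1 1.22 (1.21 to 1.22) and the ribonuclease gene Rnase1 0.953 (0.948 to 0.958). The ratios of the 9 genes lay within -0.43 and 0.07 on the log2 scale, a narrower range than the -1.51 to 0.28 of this list, and with 1 library per group this difference in range has no test.

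In the list of zymogen activation and protease inhibitors, 0 of 7 tested genes were called, with a median log2 ratio of -0.40. Enteropeptidase (Tmprss15), an enzyme of the gut, had 1 count in db/db islets and 0 in db/m islets. The trypsin inhibitor gene of acinar cells, RefSeq Spink1 and listed as Spink3, had 1930 counts in db/db islets and 2046 in db/m islets, a ratio of 0.746 (0.7 to 0.794). The pancreatic serpin gene Serpini2 had a ratio of 0.618 (0.605 to 0.632), the cathepsin L gene Ctsl, whose product can degrade trypsinogen, 1.14 (1.08 to 1.2), and the cystatin C gene Cst3 1.02 (0.946 to 1.09).

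Of 15 tested zymogen granule genes, 0 were higher, 2 were lower (Dmbt1 and Tff2) and 13 were neither, with a median log2 ratio of -0.18. Dmbt1, a secreted scavenger receptor protein, had 312048 counts in db/db islets and 506518 in db/m islets, a ratio of 0.487 (0.485 to 0.489), and the trefoil peptide gene Tff2 had a ratio of 0.452 (0.434 to 0.471). With total counts neither was called, at -0.86 for Dmbt1 and -0.97 for Tff2 on the log2 scale. Vamp2, on the same list and not called with TMM, was called higher with total counts, at 1.16. The granule membrane gene Gp2 had a ratio of 0.851 (0.844 to 0.857), Zg16, a lectin of the granule, 0.833 (0.828 to 0.838), and Sycn, which encodes syncollin, 1.36 (1.35 to 1.37). Of 16 acinar transcription factors, 1 was lower (Hnf4a, 0.42, 0.366 to 0.482) and 15 were neither, with a median of -0.22. Rbpjl, the acinar subunit of PTF1, had a ratio of 1.12 (1.06 to 1.18), Bhlha15, a factor of the secretory apparatus, 1.28 (1.21 to 1.36), the nuclear receptor gene Nr5a2 0.821 (0.765 to 0.88) and the secretory stress factor gene Xbp1 0.558 (0.536 to 0.581). Ptf1a was named after its values were seen, because E-box and TC-box letters are marked above. Ptf1a had 247 counts in db/db islets and 380 in db/m islets, a ratio of 0.514 (0.436 to 0.605), and binding to those letters was not tested.

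**Figure D4:**
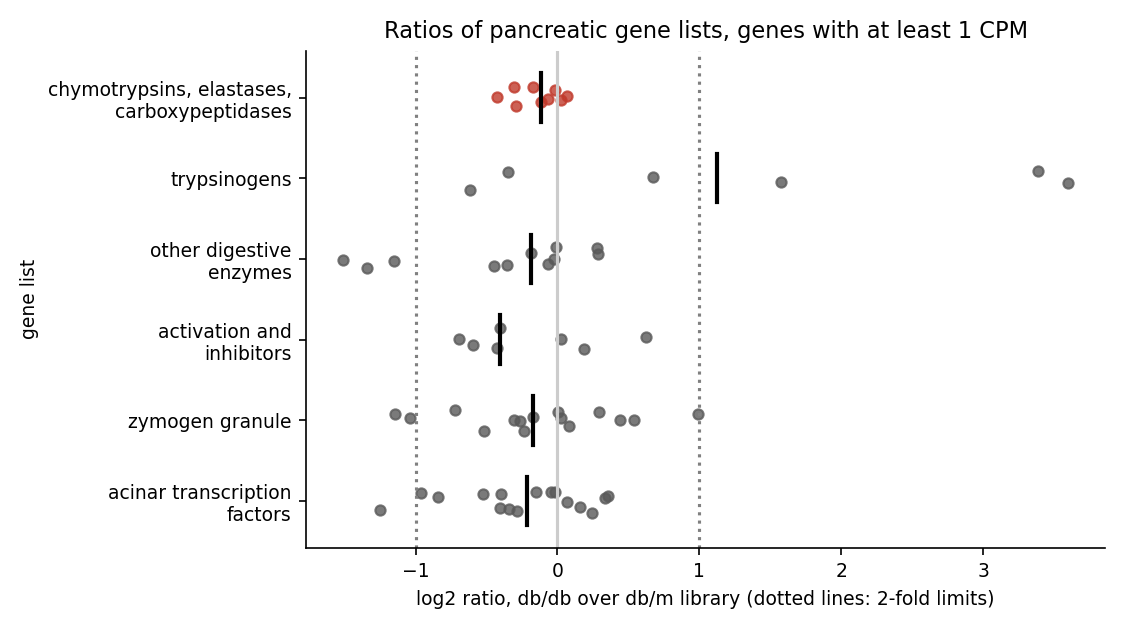
Log2 ratio of db/db over db/m islets for genes with at least 1 CPM on 6 lists of pancreatic genes (points) with the median of each list (black bars), TMM scaling, dotted lines at 2-fold. The 9 zymogen genes (top row) lie between -0.43 and 0.07, and trypsinogens reach 3.60.

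Of the genes outside the set whose mean reached 1000 CPM, the 5 with the log2 ratio nearest to that of the summed zymogen counts (-0.16) were Eef1a1, Pdia2, Klk1, Gp2 and Rnase1. Likeness was the distance between log2 ratios over 2 libraries, so it describes one ratio and no course over samples. The translation elongation factor gene Eef1a1 had 2432 CPM in db/db islets and 2752 CPM in db/m islets, Pdia2, a protein disulfide isomerase of the pancreas, 2195 CPM in db/db and 2398 CPM in db/m, and the kallikrein gene Klk1 5252 CPM in db/db and 5990 CPM in db/m.

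Apart from Cela3a, the genes of the set had counts far above those of the genes next to them. Cela3a, with a mean of 22.6 CPM, lay below its neighbour Cdc42, 43795 bases away. Within 50 kb, 33 other annotated genes were in the table, 6 of them with 0 counts in both libraries, and the highest mean was 51.2 CPM (Cdc42), whereas Ctrc, the lowest of the set apart from Cela3a, had a mean of 10238 CPM. Of the 17 neighbours with at least 1 CPM, 1 was higher in db/db islets (Smagp, 37482 bases from Cela1) and 2 were lower (Galnt6, 1995 bases from Cela1, and Cep41, 8096 bases from Cpa1). With total counts Lcat, 5689 bases from Ctrl, was called higher too, at 1.11 on the log2 scale. Galnt6, which encodes a glycosyltransferase, had 249 counts in db/db islets and 753 in db/m islets, a ratio of 0.261 (0.226 to 0.302), beside 0.809 for Cela1. Mir7076, a microRNA gene inside Ctrb1, had 53 counts in db/db islets and 56 in db/m islets, and Casp9, whose annotated end overlaps Cela2a, had 42 in db/db and 36 in db/m. Their reads cannot be told apart here from those of the zymogen gene that they overlap. Smagp, Lcat, Galnt6, Cep41, Mir7076, Cdc42 and Casp9 were named after their values were seen.

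**Figure D5:**
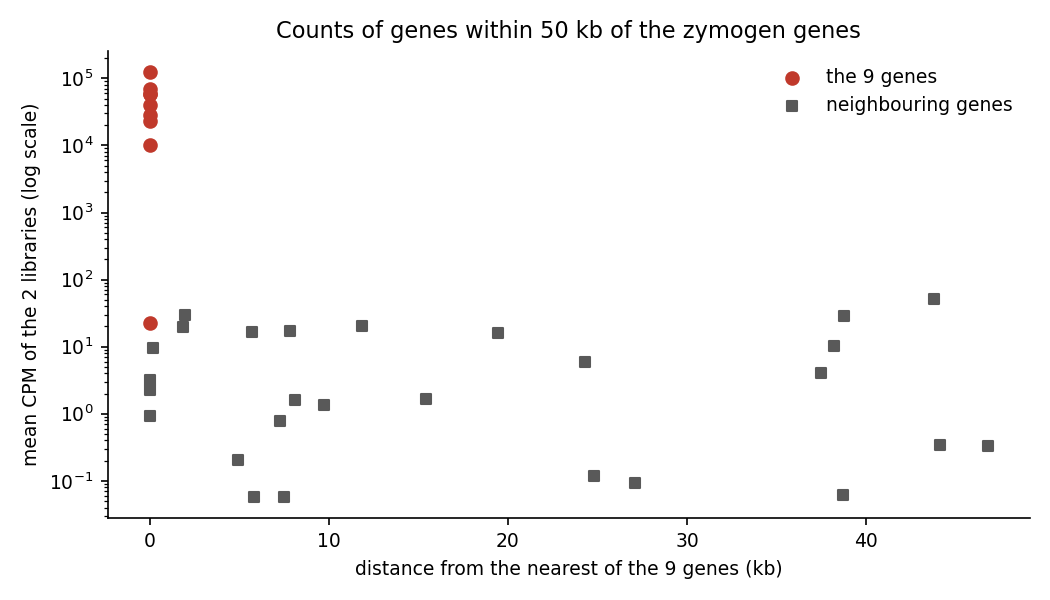
Mean CPM of the 2 libraries (log axis) of the 9 zymogen genes, at distance 0, and of annotated genes within 50 kb, by their distance in kb from the nearest of the 9; 6 neighbours with 0 counts are not drawn. The highest neighbour has 51.2 CPM, and 8 of the 9 zymogen genes lie at 10238 CPM or above.

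The labels give the samples as islet cells, and genes of acinar cells held most counts: 27 acinar enzyme genes, the 9 included, took 70.0% of the counts in db/db islets and 70.1% in db/m islets. All 14 islet endocrine markers were detected in both libraries and together took 0.222% of the counts in db/db islets and 0.163% in db/m islets; 6 were higher in db/db, 2 were lower and 6 were neither. With total counts Ins1, the insulin gene among the lower ones, stood at -0.90 on the log2 scale and was not called. The 11 duct cell markers took 0.0305% of the counts in db/db islets and 0.0391% in db/m islets, and 0 of 9 tested were called. Stellate, endothelial, macrophage and mast cell markers took less than 0.003% of either library each. They had 1 of 5, 2 of 5, 0 of 2 and 0 of 1 tested genes lower in db/db islets and 1 macrophage gene higher. With total counts Kdr, 1 of the 2 lower endothelial genes, stood at -0.86 on the log2 scale and was not called. Of the 8 mast cell markers, Kit had 455 counts in db/db islets and 319 in db/m islets and Cpa3 had 9 in db/db and 17 in db/m. Tpsb2 had 4 counts in db/db islets, Cma1 and Fcer1a had 1 each there, and these genes were at 0 in db/m islets. Mcpt4, Tpsab1 and Ms4a2 were at 0 in both. The sources used here do not give the purity of the islets, and the part of islet purity in the values of the 9 genes was not tested.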

How the data were processed

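Total RNA of mouse islets, isolated with collagenase and a density gradient, was freed of ribosomal RNA before sequencing, per the labels' protocols. Reads were aligned with HISAT2 2.0.4 to a genome named mm10 and GRCm38, per the submitters' processing notes; the sources used here name no counting program, strand setting or handling of shared reads. The authors deposited whole-number counts per gene, with 1 column per library.

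Groups came from the library titles. Counts were scaled with TMM factors (edgeR 4.0.16, R 4.3.3) and expressed as CPM of the scaled library. Ratios of db/db over db/m carry exact 95% Clopper-Pearson intervals, and intervals of pair quotients use a normal approximation on the log scale (Python 3.11.15, numpy 2.4.6, scipy 1.17.1, pandas 2.3.3). PCR copies are not independent molecules, so all intervals cover counting error only. The comparison covered the 10300 genes whose mean unscaled CPM was 1 or more. With 1 library per group the planned rule was one of size, not a test. The scripts were tested on simulated data. Totals were 18233695 counts for db/db and 16271129 for db/m. A gene at 0 in one library entered list medians at a floor of 3 counts, or at the count of the other library where that was lower.

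The members and lists were chosen with earlier results of these data known. Named genes are the 9, all called genes and the 4 highest by mean CPM on 5 pancreatic lists, 6 related proteases and the 5 nearest in ratio; others were chosen after their values were seen. Positions and promoters are RefSeq's (GRCm38.p6), matched for all 9 genes and for 8 of 9; promoters were aligned with biopython 1.88. Figures were drawn with matplotlib 3.10.9. Alternatives were total counts, DESeq2 1.42.0 size factors, totals without acinar enzyme or hormone genes, other fold limits and other filters. Transcript lengths were not used here, so no order of levels per length is given.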

Additional observations from a re-analysis of the deposited data

How the results depend on the processing

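The call of 0 higher among the 9 zymogen genes held under all scalings, fold limits and filters tried, and the call of 0 lower under all but the lowest fold limit (0.32 on the log2 scale), where 1 gene (Cela2a) was lower. The fold limits were tried with TMM only. Cela2a stood at -0.25 with total counts, -0.26 without acinar enzyme genes and -0.25 without hormone genes, short of that limit, and at -0.44 with DESeq2 size factors. Scaling moved the pooled ratios by more than their counting intervals. The ratio of all 9 was 1.01 with total counts, 0.892 with DESeq2 size factors, 1.01 with totals without acinar enzyme genes and 1.01 with totals without hormone genes. In the same order it was 1.13, 0.995, 1.13 and 1.13 for chymotrypsins, 0.930, 0.819, 0.927 and 0.930 for elastases, and 0.963, 0.848, 0.959 and 0.963 for carboxypeptidases. The whole set changed sides of 1 in 3 of these 4, and the chymotrypsins with DESeq2 size factors. Of the 9 genes, 3 changed sides with total counts (Ctrl, Ctrc and Cela3a), the same 3 without acinar enzyme genes, and 4 without hormone genes (Cpa1 too), while 0 did so with DESeq2 size factors. A larger scaled total in db/db lowers all ratios alike, so quotients between the genes do not depend on it.

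Over all genes, 277 were lower and 564 higher with total counts (67.1% of calls higher, against 48.7% with TMM), and 277 were lower without hormone genes. At 1.5-fold 889 were higher and 914 lower, and at the lowest fold limit 1631 were higher and 1500 lower. Without a filter on low counts 745 were higher and 814 lower, and with at least 10 CPM 36 were higher and 95 lower. With at least 1000 CPM, a filter added after the data were seen, 0 were higher and 5 lower; no replicated test was possible, so no count at an unadjusted p exists. The median log2 ratio of the trypsinogen list ran from 1.12 to 1.30 over 6 alternatives. Over the same alternatives that of the activation and inhibitor list ran from -0.41 to -0.23. The median of the other digestive enzymes ran from -0.20 to -0.01 and that of the acinar transcription factors from -0.23 to -0.04. For the zymogen granule list it ran from -0.18 to 2.0e-05, so these medians below 0 nearly vanished under some scalings.

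No paired analysis was possible because each group has 1 library, with no replicate to leave out. The order of levels per length and shares per length were not run, since no transcript lengths were used. Depth limits only Cela3a among the 9.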

Other observations

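Proteases related to the 9 genes but made mainly by other cell types were also counted. Of 29 such genes in the table, 7 reached a mean of 1 CPM; 1 was higher in db/db islets, 0 were lower and 6 were neither, and 14 were at 0 in db/db islets and 18 in db/m islets. Their median log2 ratio was 0.23, and it was 0.06 among those with at least 10 CPM and -0.05 without a filter on low counts. Cpm, a membrane-bound carboxypeptidase gene, was the higher one, with 237 counts in db/db islets and 91 in db/m islets (ratio 2.06, 95% counting interval 1.61 to 2.65). Cpe, the carboxypeptidase that trims prohormones in endocrine cells, had 728 counts in db/db islets and 353 in db/m islets (1.63, 1.43 to 1.86). Cpd, a carboxypeptidase of the secretory pathway, had a ratio of 0.925 (0.846 to 1.01), Cpn1, a carboxypeptidase of plasma, of 0.793 (0.682 to 0.92), the epithelial serine protease gene Prss8 of 1.18 (1.06 to 1.31) and Prss23 of 1.74 (1.11 to 2.77). The mast cell carboxypeptidase gene Cpa3, which lies 7270 bases from Cpb1 and was chosen for its place beside Cpb1, had 9 counts in db/db islets and 17 in db/m islets, beside 1011507 for Cpb1 in db/db islets and 980864 in db/m islets.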
